A study of Rattus norvegicus with 17 samples.

Results

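The classical cadherins and the protocadherins that lie outside the alpha, beta and gamma gene clusters were examined in the hippocampus of adolescent Long-Evans rats. Members were the genes whose symbol is Cdh or Pcdh followed by a number, with an optional x, and which had at least 1 count in a sample, and 34 of the 34322 genes in the table met this rule. RNA was sequenced from 5 offspring of dams that drank a liquid diet with 6.7% ethanol, which gave 36% of calories (ET), 6 offspring of pair-fed dams that drank the control liquid diet in a yoked amount (PF), and 6 offspring of dams with free access to chow (AD). The diets ran from gestational day 0 to 20, after which all dams ate chow, and tissue was taken at 36 to 38 days of age. ET held 3 males and 2 females, and PF and AD each held 3 males and 3 females, and 4 of the 17 samples were from the right side. All pups of a diet group came from 1 litter, so diet and litter cannot be told apart, and p-values measure the spread between pups of 1 litter.

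Depth ranged from 10853947 to 17498392 counted fragments (median 13538433). The study kept 14 samples for its final analysis (4 ET, 5 PF and 5 AD), and tests were made on these. The 3 samples left out were ET replicate 2, PF animal 11f6 and AD replicate 4, and levels are given for all 17. Normalized counts are counts scaled for library size and composition to 1 common depth. They are compared here between samples and not between genes, since they are not divided by transcript length. The labelled tissue held its markers, as the summed level of Snap25, Rbfox3 and Syt1 was 33799 to 44913, that of the dentate granule cell genes Prox1, C1ql2 and Dsp 419 to 1269, and that of the CA pyramidal cell genes Fibcd1, Neurod6 and Bok 3582 to 7380. Sex-linked genes went against the sex label in 2 AD libraries. The summed pineal gland genes Asmt, Aanat and Tph1 reached 13249 in AD replicate 6 and were 10.1 to 101 in the other 16 libraries, and AD replicate 6 also had the highest AD level of Cdh23.

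Classical cadherins are membrane proteins that bind like cadherins on a neighbouring cell in the presence of calcium, and their tails hold catenins, which link them to actin. In the hippocampus they are known for sorting neurons, guiding axons and holding synapses together. Non-clustered protocadherins lack the catenin-binding tail and are known for weaker adhesion and for signalling to the cytoskeleton. The name rule also takes a few distant relatives, among them Cdh13, which is anchored to the membrane by a lipid, and Cdh23 and Pcdh15, which together form the tip links of hair cells in the inner ear. The 34 members were 5 type I cadherins, 13 type II cadherins, 4 other Cdh genes, 4 delta1, 5 delta2 and 3 other protocadherins. Of these, 32 had enough counts to be tested, and Cdh17 (highest 5.01 normalized counts) and Cdh26 (highest 3.55) did not.

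Cdh23 was the only member of the 32 tested that differed between diet groups at an adjusted p-value below 0.05, and it was higher in the PF group. At this threshold 1 of 32 passed in ET against PF, beside 4.13% of all genes tested, 1 of 32 in PF against AD, beside 5.17%, and 0 of 32 in ET against AD, beside 0.0127%. In ET its normalized counts were 31.4, 39.1, 52.7, 41.0 and 35.8 in replicates 1 to 5. In PF they ran from 102 to 123 with a median of 112, and in AD from 30.2 to 54.7 with a median of 33.0. Every PF library lay above every ET and every AD library, while ET and AD overlapped, and the same held for the 3 libraries outside the final 14. Mean levels in the final 14 were 40.2 ± 9.23 in ET (SD, n = 4), 114 ± 8.38 in PF (SD, n = 5) and 37.3 ± 10.4 in AD (SD, n = 5). Cdh23 was 2.82-fold lower in ET than in PF (log2 fold change -1.497, SE 0.14, adjusted p = 4.75e-05 by the quasi-likelihood test of edgeR with Benjamini-Hochberg adjustment over all genes). It was 3.10-fold higher in PF than in AD (log2 fold change 1.63, SE 0.15, adjusted p = 9.8e-06 by edgeR). These 2 comparisons share the PF libraries. The difference between ET and AD was 0.13 on the log2 scale (SE 0.22, adjusted p = 1.0 by edgeR).

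**Figure D1:**
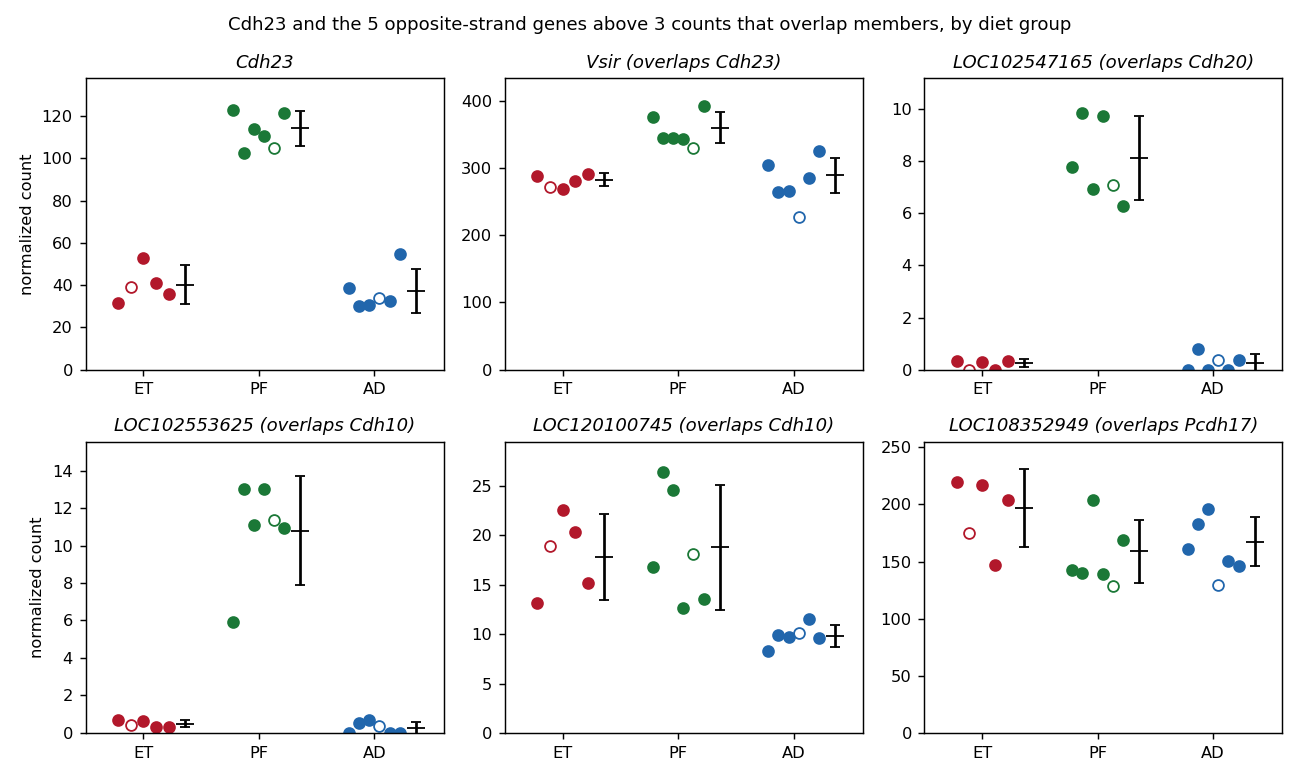
Normalized counts (vertical axes, from 0) in the ET, PF and AD groups of Cdh23 and of the 5 opposite-strand genes above 3 counts in a library that overlap members, which are Vsir (in Cdh23), LOC102547165 (in Cdh20), LOC102553625 and LOC120100745 (in Cdh10) and LOC108352949 (in Pcdh17). Each point is a library, open points are the 3 libraries outside the final 14, and bars are the mean and SD of the final 14; every PF point sits above every ET and AD point for Cdh23, Vsir, LOC102547165 and LOC102553625, of which the last pair exceeded 3 counts in PF libraries only, while PF and ET points overlap for LOC120100745, where every AD point is lower, and all groups overlap for LOC108352949.

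The stricter thresholds of the study were 0.01 for the adjusted p-value and 1.5 for the size of the log2 fold change, as its results give them, while its methods give the fold limit as an absolute fold change of 1.5, under which Cdh23 passed in ET against PF. By the log2 limit, 0 of 32 members passed in ET against PF, by edgeR and by DESeq2, beside 2.17% of all genes tested, and 3 members had an unadjusted p-value below 0.05, beside 11.9% of all genes. Cdh23 met the p-value threshold and fell just short of the fold limit. Without ET replicate 3 its log2 fold change was -1.663, without PF replicate 2 -1.536 and without PF animal 11f5 -1.509, and it then passed. By its own test, the study lists Cdh23 among genes lower in ET than in both PF and AD. Here the log2 fold change of Cdh23 in ET against AD was 0.13 (SE 0.22), and it did not pass. In PF against AD 1 of 32 members passed by edgeR and by DESeq2, beside 2.05% of all genes, and this was Cdh23, while 4 had an unadjusted p-value below 0.05, beside 16.4%. In ET against AD 0 of 32 passed by either tool, beside 0.0127% of all genes, and 2 had an unadjusted p-value below 0.05, beside 2.74%. Groups of the final 14 libraries did not overlap for 1 of 32 members in ET against PF and for 1 of 32 in PF against AD (Cdh23 in both), beside 6.82% and 6.66% of all genes, and for 0 of 32 in ET against AD, beside 1.2%. The median log2 fold change of the 32 members was -0.0102 in ET against PF, 0.0184 in ET against AD and 0.0232 in PF against AD, and that of all genes tested was 0.00534, 0.0028 and -0.00287.

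**Figure D2:**
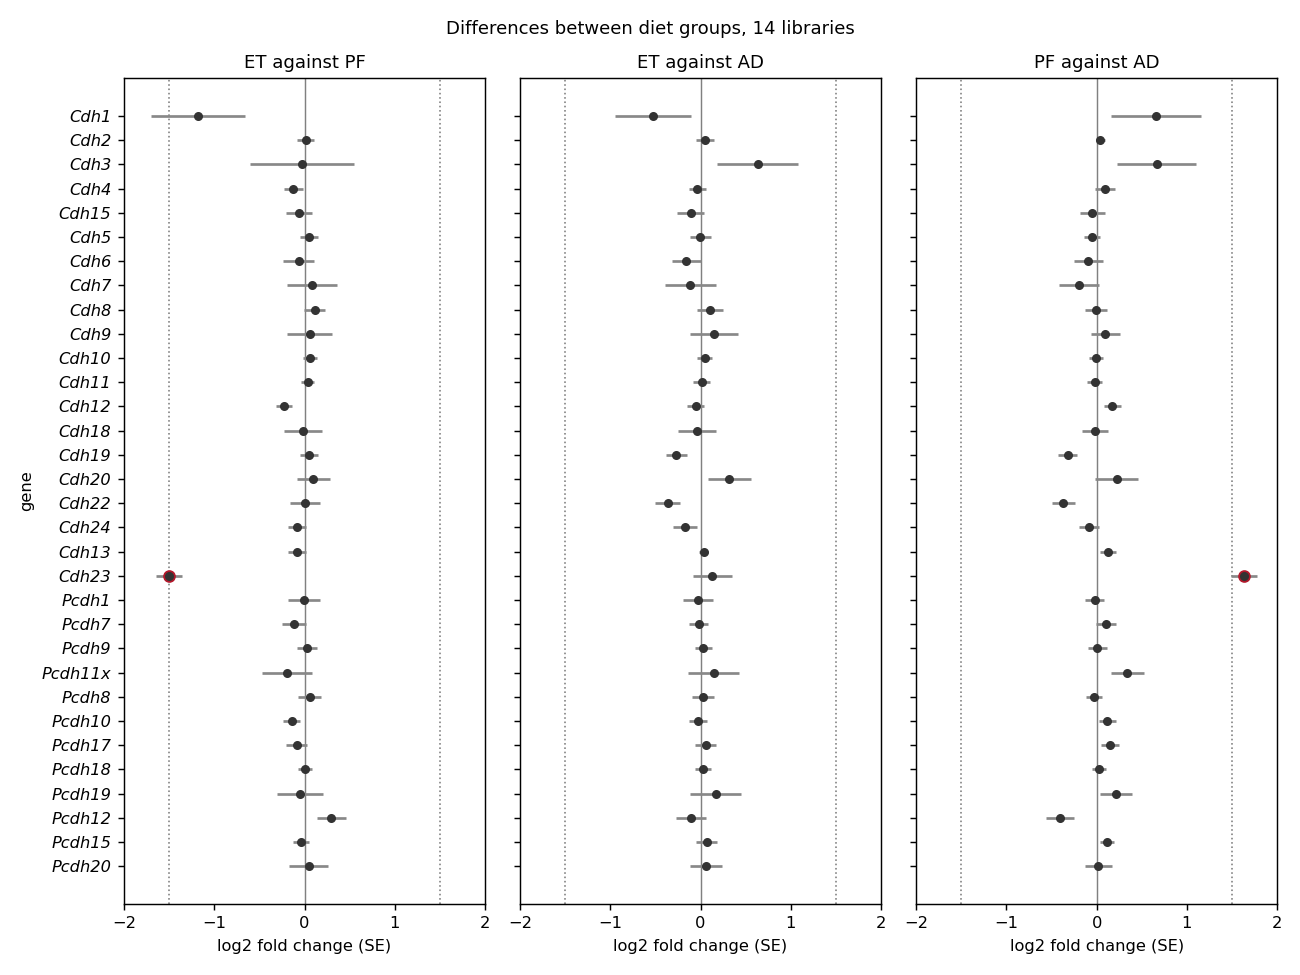
Log2 fold change (horizontal axes, points) with its SE (bars) of the 32 members tested, for ET against PF, ET against AD and PF against AD in the final 14 libraries. Dotted lines mark the fold limit of 1.5 on the log2 scale, and larger red points have an adjusted p-value below 0.05, which Cdh23 alone had, at -1.497 in ET against PF and 1.63 in PF against AD.

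Other genes lie across the Cdh23 locus. In the rat gene list of assembly GRCr8, Vsir, which encodes an immune checkpoint receptor, overlaps Cdh23 on the opposite strand, and Psap, which encodes prosaposin, also overlaps it. The protein-coding gene C20h10orf105 and the long noncoding RNA LOC134483915 also overlap Cdh23 on the opposite strand, but neither was among the genes counted. The study let a read count for more than 1 feature and does not state the strand setting of the counting. The list gives gene spans and not exons, so whether exons of these genes overlap was not examined, and where they do, the deposited counts do not tell reads of a gene from those of its opposite-strand partner. Vsir had 283 ± 9.82 normalized counts in ET (SD, n = 4), 361 ± 23.0 in PF (SD, n = 5) and 289 ± 26.3 in AD (SD, n = 5). All 6 PF libraries, at 330 to 394, lay above the 5 ET libraries (269 to 291) and the 6 AD libraries (228 to 326). Its log2 fold change was -0.35 in ET against PF (SE 0.06, adjusted p = 0.00726 by edgeR) and 0.32 in PF against AD (SE 0.07, adjusted p = 0.0187 by edgeR). Psap did not show this order, as its mean was 24030 in ET, 22911 in PF and 23719 in AD.

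Other members were also overlapped by genes listed on the opposite strand. Annotated genes overlapped 17 of the 34 members, and 11 overlapping genes in the table lay on the opposite strand. Of these, 6 were at or under 3 counts in every library, and the other 5 are described. 2 of the 5 exceeded 3 counts in PF libraries only, so no share of the 5 is compared with other genes. These were LOC102547165, a long noncoding RNA in Cdh20, at 6.29 to 9.86 in PF and at most 0.781 in the other groups, and LOC102553625, a long noncoding RNA in Cdh10, at 5.92 to 13.04 in PF and at most 0.674 elsewhere. Their host genes did not share this order, as Cdh20 ranged from 296 to 557 in PF and from 217 to 562 in AD, and Cdh10 from 459 to 620 in PF and from 440 to 608 in AD. Besides Vsir, the remaining opposite-strand genes were LOC108352949 in Pcdh17, at 147 to 220 in ET, 129 to 204 in PF and 129 to 196 in AD, and LOC120100745 in Cdh10, at 13.2 to 22.6, 12.7 to 26.4 and 8.31 to 11.5. These genes were singled out for their overlap with named members, and whether Cdh23 transcripts or reads of another transcript at the locus made up the PF excess was not tested.

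The start regions of 4 genes are shown because Cdh23 was the member that differed, Vsir is its opposite-strand neighbour, and Cdh22 and Cdh19 were next in order of p-value in PF against AD while standing near opposite ends in CG content. Each is 300 bases from RefSeq on assembly GRCr8, from 250 bases before to 50 after the annotated start, written 5′ to 3′ on the gene's strand with CG dinucleotides in capitals. Cdh23 is at chr20:29165283-29165582 (- strand), Vsir at chr20:28824265-28824564 (+ strand), Cdh22 at chr3:174389843-174390142 (- strand) and Cdh19 at chr13:28533704-28534003 (- strand).
Cdh23: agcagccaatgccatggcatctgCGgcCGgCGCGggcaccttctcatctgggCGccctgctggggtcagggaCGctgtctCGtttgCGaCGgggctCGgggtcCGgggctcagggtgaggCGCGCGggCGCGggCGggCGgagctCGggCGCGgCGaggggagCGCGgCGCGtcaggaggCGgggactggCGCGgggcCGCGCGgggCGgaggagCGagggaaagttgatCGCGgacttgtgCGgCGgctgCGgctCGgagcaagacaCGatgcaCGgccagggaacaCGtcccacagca
Vsir: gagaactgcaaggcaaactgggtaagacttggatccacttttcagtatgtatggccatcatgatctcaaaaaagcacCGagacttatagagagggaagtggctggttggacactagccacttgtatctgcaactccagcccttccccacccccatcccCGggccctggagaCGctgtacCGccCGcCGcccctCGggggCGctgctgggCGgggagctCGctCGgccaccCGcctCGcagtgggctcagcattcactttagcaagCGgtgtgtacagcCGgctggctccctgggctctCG
Cdh22: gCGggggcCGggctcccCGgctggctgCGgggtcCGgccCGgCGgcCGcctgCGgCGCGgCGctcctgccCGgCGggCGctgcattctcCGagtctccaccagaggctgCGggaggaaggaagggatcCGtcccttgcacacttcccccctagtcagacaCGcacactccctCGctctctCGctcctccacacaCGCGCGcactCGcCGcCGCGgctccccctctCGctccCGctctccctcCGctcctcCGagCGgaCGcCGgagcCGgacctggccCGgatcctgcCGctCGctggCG
Cdh19: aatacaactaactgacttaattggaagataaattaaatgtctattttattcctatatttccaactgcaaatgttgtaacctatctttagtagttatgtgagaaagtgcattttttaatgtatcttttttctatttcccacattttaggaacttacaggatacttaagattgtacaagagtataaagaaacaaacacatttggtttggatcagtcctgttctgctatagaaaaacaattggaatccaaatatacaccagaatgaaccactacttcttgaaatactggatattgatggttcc
The Cdh23 window held 43 CG dinucleotides, the most among the 24 members with a sequence and at the 98th percentile of 27457 windows of this length. That of Cdh22 held 40 and that of Cdh19 held 0, and Vsir had 16. The median was 10 among the 24 members and 7 among all windows. TATAAA, searched on both strands, was present in 2 of the 24 members, Cdh19 and Pcdh8, and in 14.3% of all windows. Sequences were not matched for the other 10 members.

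Among type I cadherins, which include the most studied adhesion molecules of the family, the diet groups overlapped for all 5 members, and Cdh1 and Cdh3 varied most between libraries. Cdh2, N-cadherin, the main cadherin of neurons, had 2197 ± 356 normalized counts in ET (SD, n = 4), 2173 ± 90.7 in PF (SD, n = 5) and 2120 ± 124 in AD (SD, n = 5), with a log2 fold change of 0.01 in ET against PF (SE 0.10). Cdh4, R-cadherin, ranged from 317 to 482 over the 17 libraries, and Cdh15, M-cadherin of muscle and cerebellum, from 33.5 to 75.8. Their log2 fold changes in ET against PF were -0.12 (SE 0.11) and -0.06 (SE 0.15).

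Cdh1, E-cadherin, the cadherin of epithelia, had 27.3, 43.2, 10.7, 16.8 and 23.5 normalized counts in ET replicates 1 to 5. PF libraries ran from 12.5 to 69.8 with a median of 37.8, and AD libraries from 11.6 to 45.5 with a median of 22.1. The groups overlapped, and PF held both low and high libraries. The log2 fold change of Cdh1 was -1.18 in ET against PF (SE 0.52, unadjusted p = 0.0452, adjusted p = 0.401 by edgeR), with a range of -1.41 to -0.94 on leaving out single libraries, and -0.73 with all 17 samples. It was -0.53 in ET against AD (SE 0.42) and 0.66 in PF against AD (SE 0.50).

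Cdh3, P-cadherin, also of epithelia, had the widest range of the 32 members, a 34.7-fold span between libraries. Its normalized counts were 38.1, 186, 11.9, 8.39 and 10.6 in ET replicates 1 to 5, ran from 7.97 to 250 in PF with a median of 15.2, and from 8.37 to 276 in AD with a median of 12.1. The 3 highest libraries were ET replicate 2, PF animal 11f6 and AD replicate 4, which are those the study left out. They were also the 3 highest for Ttr, the transthyretin gene that choroid plexus epithelium expresses strongly, at 87591, 100268 and 112289 normalized counts. The next for both genes were ET replicate 1 and PF replicate 2, with Cdh3 at 38.1 and 40.4 and Ttr at 13793 and 14552. The remaining 12 libraries had 7.97 to 18.9 for Cdh3 and 36.1 to 2534 for Ttr. All 7 choroid plexus genes listed were above 3 counts in a library, and their sum ran from 88.5 to 15624 in the final 14 and from 94245 to 120552 in the 3 left out. Ttr is among these 7 genes and made up most of the sum in those 3 libraries, with 112289 of 120552 in AD replicate 4. The part of the 7 genes in the level of Cdh3 was not tested. In the final 14 the log2 fold change of Cdh3 was 0.63 in ET against AD (SE 0.45, adjusted p = 1.0 by edgeR), and it changed sign to -0.09 (SE 0.25) without ET replicate 1.

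**Figure D3:**
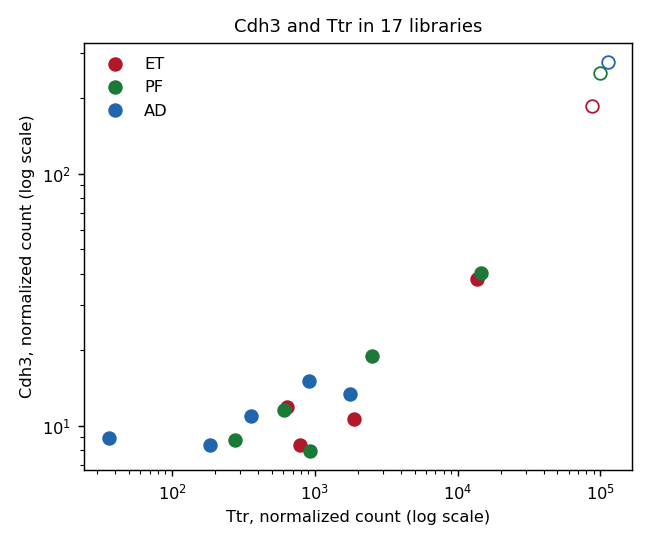
Normalized counts of Cdh3 (vertical axis, log scale) against those of Ttr (horizontal axis, log scale) in 17 libraries, coloured by diet group. Open points are the 3 libraries outside the final 14, with Cdh3 at 186, 250 and 276, and the next pair, at 38.1 and 40.4, are ET replicate 1 and PF replicate 2.

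Type II cadherins, which bind more selectively than type I and mark subsets of neurons, gave 0 of 13 members past the thresholds in each of the 3 diet comparisons, by edgeR and by DESeq2, beside 2.17%, 0.0127% and 2.05% of all genes in ET against PF, ET against AD and PF against AD. At an unadjusted p-value below 0.05, 1 was lower in ET than in PF, beside 7.21% of all genes, 2 were lower in ET than in AD, beside 1.15%, and 2 were lower in PF than in AD, beside 6.77%. Cdh12, a brain cadherin, averaged 373 ± 27.7 in ET (SD, n = 4) against 436 ± 49.6 normalized counts in PF (SD, n = 5), and its log2 fold change was -0.23 (SE 0.09, unadjusted p = 0.0296, adjusted p = 0.325 by edgeR). ET libraries were at 372, 274, 347, 362 and 412 and PF libraries at 357 to 518, so the groups overlapped.

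Cdh19 and Cdh22 both had means below AD in ET and in PF. Cdh19, a cadherin known from the Schwann cell lineage, had 141, 201, 146, 171 and 137 normalized counts in ET, 122 to 158 in PF with a median of 146, and 155 to 212 in AD with a median of 166. Its log2 fold change was -0.32 in PF against AD (SE 0.10, unadjusted p = 0.0108, adjusted p = 0.132 by edgeR) and -0.27 in ET against AD (SE 0.11, unadjusted p = 0.0399, adjusted p = 1.0 by edgeR), and with all 17 samples the latter was -0.15. The largest PF value lay above the smallest AD value. Cdh22, a brain cadherin, had 376, 283, 249, 253 and 339 normalized counts in ET, 222 to 388 in PF with a median of 291, and 260 to 450 in AD with a median of 369. Its log2 fold change was -0.37 in PF against AD (SE 0.13, unadjusted p = 0.0131, adjusted p = 0.147 by edgeR) and -0.36 in ET against AD (SE 0.14, unadjusted p = 0.0266, adjusted p = 1.0 by edgeR). Without PF animal 11f5 the adjusted p in PF against AD was 0.0297, below 0.05. ET and PF did not stand apart for either gene, at log2 fold changes of 0.05 (SE 0.10) for Cdh19 and 0.01 (SE 0.17) for Cdh22, and both comparisons with AD share the AD libraries.

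The groups also overlapped for the type II members of highest count. Cdh11, which is also a cadherin of mesenchyme, had 1565 ± 120 normalized counts in ET, 1522 ± 107 in PF and 1551 ± 184 in AD (SD, n = 4, 5 and 5). Cdh8 had 1307 ± 199, 1206 ± 136 and 1217 ± 218, and Cdh10 had 578 ± 42.0, 555 ± 47.0 and 560 ± 56.3. Their log2 fold changes in ET against PF were 0.04 (SE 0.07), 0.11 (SE 0.11) and 0.06 (SE 0.08). Cdh24 was 0.17 lower on the log2 scale in ET than in AD (SE 0.13) and Cdh20 was 0.32 higher (SE 0.24), both within the spread between libraries. Without AD replicate 2 the value of Cdh20 was 0.55 and without AD replicate 5 it was 0.18. That of Cdh24 was -0.11 without ET replicate 4 and -0.09 without AD replicate 6. The other type II members, among them Cdh5, the VE-cadherin of endothelium, had log2 fold changes between -0.19 and 0.15 in the 3 diet comparisons, and 0 passed an unadjusted p-value of 0.05.

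The diet groups overlapped for every protocadherin. Of the 12 protocadherins, 0 passed the thresholds in any of the 3 diet comparisons by edgeR or DESeq2, beside 2.17% of all genes in ET against PF, 0.0127% in ET against AD and 2.05% in PF against AD. At an unadjusted p-value below 0.05 there was 1, Pcdh12, in PF against AD, beside 16.4% of all genes, and 0 in ET against PF and ET against AD, beside 11.9% and 2.74%. Among delta1 members, Pcdh1 had 6244 ± 1650 normalized counts in ET, 6241 ± 900 in PF and 6359 ± 733 in AD (SD, n = 4, 5 and 5), and Pcdh9 had 2549 ± 214, 2496 ± 365 and 2491 ± 297. Pcdh7 had 1730 ± 244, 1873 ± 317 and 1753 ± 171. Pcdh11x, an X-linked protocadherin, was 0.34 higher on the log2 scale in PF than in AD (SE 0.18, unadjusted p = 0.0838, adjusted p = 0.385 by edgeR).

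Among delta2 members, several of which bind the WAVE actin regulators through their tails, Pcdh10 had 2380 ± 204 normalized counts in ET, 2624 ± 270 in PF and 2427 ± 310 in AD (SD, n = 4, 5 and 5). Its log2 fold change was -0.14 in ET against PF (SE 0.09, adjusted p = 0.651 by edgeR) and -0.08 without ET replicate 4. Pcdh17, known from presynaptic sites, had 1489 ± 231, 1577 ± 201 and 1427 ± 173. Pcdh12, a protocadherin of endothelium, had 29.0, 48.8, 29.2, 39.1 and 40.0 normalized counts in ET, 22.2 to 39.1 in PF with a median of 28.1, and 27.0 to 46.0 in AD with a median of 37.0. Its log2 fold change was -0.40 in PF against AD (SE 0.15, unadjusted p = 0.0212, adjusted p = 0.195 by edgeR) and 0.30 in ET against PF (SE 0.16, adjusted p = 0.537 by edgeR), and the groups overlapped. The summed endothelial genes Cldn5, Pecam1, Flt1 and Tek overlapped too, at 2435 to 3254 in ET, 2922 to 3387 in PF and 2888 to 3466 in AD of the final 14. Pcdh15, the tip link partner of Cdh23, did not follow it. Pcdh15 had 179 ± 24.6 in ET, 184 ± 3.85 in PF and 171 ± 20.0 in AD, with log2 fold changes of -0.04 in ET against PF (SE 0.09) and 0.11 in PF against AD (SE 0.08). Cdh13 overlapped between groups, at 1154 ± 24.0, 1222 ± 184 and 1125 ± 59.6.

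**Figure D4:**
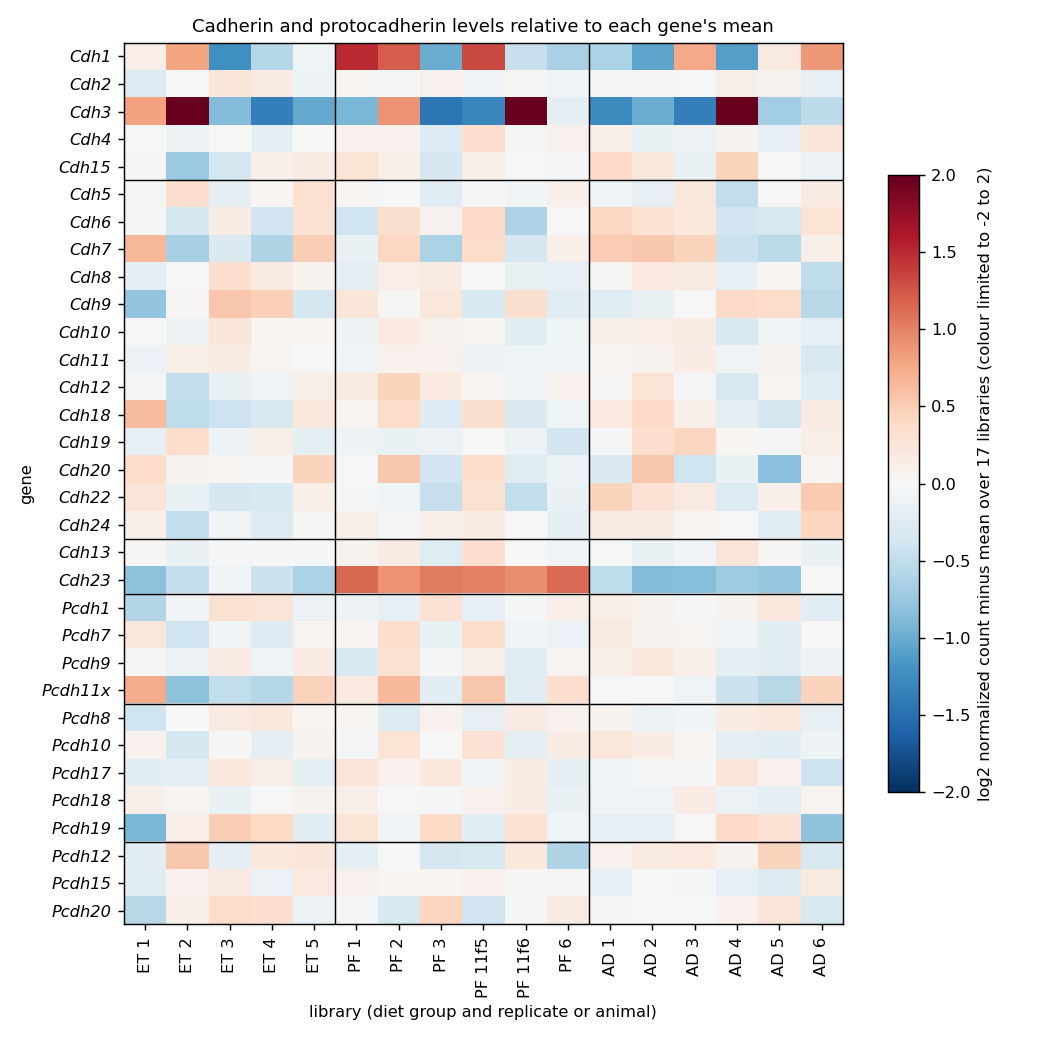
Log2 normalized count of each of 32 members (rows, grouped by class) minus its mean over the 17 libraries (columns, grouped by diet), with colours limited to -2 and 2. Cdh23 is above its mean in all 6 PF libraries, Cdh3 is highest in ET replicate 2, PF animal 11f6 and AD replicate 4, and most other rows vary within groups.

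Several members varied more within diet groups than between them. Pcdh19, an X-linked delta2 protocadherin in which mutations cause an epilepsy, had 998, 2076, 2662, 2487 and 1609 normalized counts in ET replicates 1 to 5, 1620 to 2486 in PF with a median of 2047, and 1086 to 2460 in AD with a median of 1777. Pcdh20 had 1051, 1654, 1997, 1952 and 1424 in ET, 1185 to 2077 in PF and 1242 to 1841 in AD. ET replicate 1 was lowest for both, and AD replicate 6 was second lowest for Pcdh19. Pcdh11x ran the other way in ET, at 299, 101, 128, 120 and 245, and was highest in ET replicate 1. Cdh20 had 495, 406, 396, 375 and 526.1 in ET, 296 to 557 in PF and 217 to 562 in AD. Cdh7 and Cdh9, chosen after their values were seen, split alike, as ET replicate 1 was highest of 17 for Cdh7 (212) and lowest of 17 for Cdh9 (265).

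Levels of region markers also varied between libraries. The dentate granule cell gene Prox1 was 111 in ET replicate 1, 681 in ET replicate 3 and 244 in AD replicate 6, and the CA1 pyramidal cell gene Fibcd1 was 958, 2651 and 1420. ET replicate 1 was lowest and AD replicate 6 second lowest of 17 for Prox1, Fibcd1 and Pcdh19. C1ql2, also of the dentate list, did not hold this order. For C1ql2, PF animal 11f5 was lowest, and ET replicate 1 was 15th and AD replicate 6 14th from the highest. Of the 8 libraries highest for Pcdh19, 7 were among the 8 highest for Prox1 and 7 among the 8 highest for Fibcd1, and for Pcdh20 the numbers were 7 and 6. For Pcdh11x they were 1 and 1, and for Cdh20 2 and 2. This tally was chosen after the values were seen and is a description of 17 libraries with no test. The orders were not identical, as PF replicate 1 was 15th from the highest for Prox1, 2nd for Fibcd1 and 7th for Pcdh19. The summed dentate list (3 of 3 genes above 3 counts) ranged from 419 to 1269 in ET, 619 to 1228 in PF and 649 to 1179 in AD, and the summed CA list (3 of 3 genes) from 3582 to 7380, 4847 to 6757 and 3924 to 6970. ET replicate 1 was lowest for both sums. In bulk tissue, fewer cells of a type and less RNA per cell cannot be told apart, and the part of these lists in the spread of the members was not tested. Oligodendrocyte genes also differed in sum, at 215739 to 275448 in ET, 154131 to 213790 in PF and 181710 to 253574 in AD of the final 14 (3 of 3 genes above 3 counts). Summed thalamus and habenula genes (6 of 6 above 3 counts) ran from 934 to 2011 in ET, 611 to 983 in PF and 880 to 1178 in AD of the final 14. The groups overlapped for this sum.

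**Figure D5:**
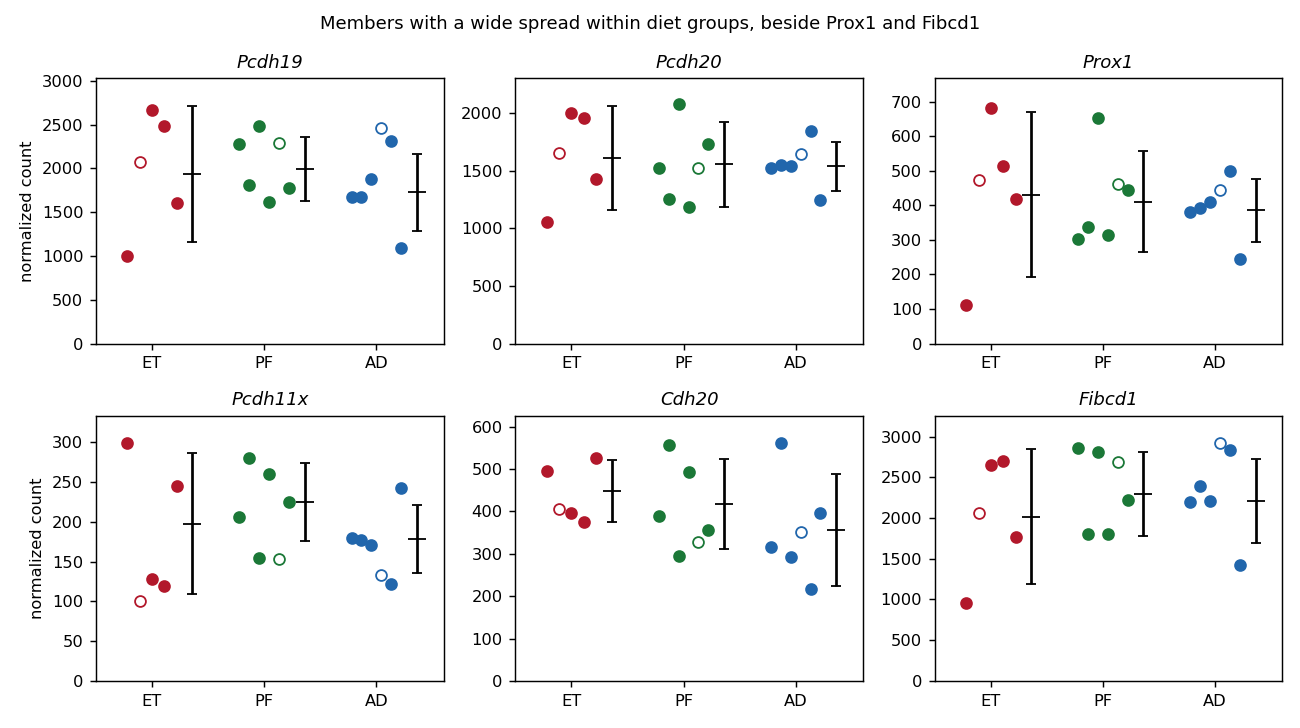
Normalized counts (vertical axes, from 0) of Pcdh19, Pcdh20, Pcdh11x and Cdh20 beside the region markers Prox1 and Fibcd1 in the ET, PF and AD groups. Points are libraries, open points are those outside the final 14, and bars are the mean and SD of the final 14. The lowest ET point for Pcdh19 (998), Pcdh20 (1051), Prox1 (111) and Fibcd1 (958) is ET replicate 1.

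Sex was compared in the ET and PF libraries of the final 14, with diet as a covariate, since 2 AD libraries went against their labels. By edgeR and by DESeq2, 0 of 32 members differed between males and females, beside 0.0303% of all genes, and 0 had an unadjusted p-value below 0.05, beside 1.9%. The smallest unadjusted p-value was that of Cdh5, which was 0.19 higher in males on the log2 scale (SE 0.09, unadjusted p = 0.0601, adjusted p = 1.0 by edgeR). The X-linked members Pcdh11x and Pcdh19 had log2 fold changes of 0.0010 (SE 0.29) and -0.13 (SE 0.27). For the interaction of sex and diet, 0 of 32 members passed an adjusted p-value of 0.01 by edgeR or DESeq2, beside 0.0% of all genes, and 1, Pcdh12, had an unadjusted p-value below 0.05, beside 1.4% (0.69, SE 0.27, unadjusted p = 0.0464, adjusted p = 1.0 by edgeR).

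Genes for proteins that work with cadherins gave no call at the study's thresholds. Of 22 catenins and other partners, 20 were tested, and 0 met both the p-value and the fold limit in ET against PF, ET against AD or PF against AD by edgeR or DESeq2, beside 2.17%, 0.0127% and 2.05% of all genes. At an unadjusted p-value below 0.05 there was 1 higher in ET than in PF, beside 11.9% of all genes in either direction, 1 higher in ET than in AD, beside 2.74%, and 1 higher and 3 lower in PF than in AD, beside 16.4%. Ctnna1, alpha-E-catenin, which couples cadherins to actin, had the smallest p-value in ET against PF, where it was 0.20 higher on the log2 scale (SE 0.05, adjusted p = 0.0716 by edgeR), at 1111 to 1282 normalized counts in ET and 1042 to 1070 in PF. Ctnnal1, a catenin-like protein, had the smallest in ET against AD (0.17, SE 0.07) and in PF against AD (0.26, SE 0.08, adjusted p = 0.0855 by edgeR). Of 20 other cadherin superfamily genes such as the Fat, Dachsous, Celsr and calsyntenin genes, 16, 15 and 15 were tested in the 3 comparisons and 0 passed the thresholds by edgeR or DESeq2, beside the same 2.17%, 0.0127% and 2.05%. By unadjusted p-values under 0.05, 3 were higher in ET than in PF, 0 differed in ET against AD, and 1 was higher and 1 lower in PF than in AD, beside the same 11.9%, 2.74% and 16.4% of all genes. Dsc2, a desmosomal cadherin, passed an adjusted p-value of 0.05 but not 0.01, and was 0.83 higher on the log2 scale in PF than in AD (SE 0.18, adjusted p = 0.0294 by edgeR), at 16.0 ± 1.47 against 9.13 ± 2.05 normalized counts (SD, n = 5 and 5).

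The clustered protocadherins, the nearest relatives outside the name rule, gave other counts. Of 35 tested, 12 passed the thresholds as lower in ET than in PF and 12 as higher in PF than in AD, by edgeR and by DESeq2, beside 2.17% and 2.05% of all genes in either direction, and 0 passed in ET against AD, where 0 also had an unadjusted p-value below 0.05, beside 2.74%. The non-clustered members gave 0 of 32, 1 of 32 and 0 of 32 in these comparisons. Clustered genes share exons in part, and a read could count for several of them. The difference between the lists was not tested, and both comparisons with passing genes share the PF libraries.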

How the data were processed

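RNA was extracted from the hippocampus of each of 17 rats and sequenced as paired reads from stranded libraries. The authors ran fastp, aligned to mRatBN7.2 (rat) with Bowtie2 2.4.2 and counted fragments on the exons of each gene with featureCounts 2.0.1, requiring mapping quality 10 or more and letting a read count for more than 1 feature. The strand setting is not given in the sources used here. The values the authors deposited are in the form of expected counts, the mean of 3 technical replicates per sample, without normalization, and 53.3% of them were whole to within 1e-06. They were rounded before the fits.

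Samples were grouped by the diet and sex in the labels. The PF males 11f5 and 11f6 are named by animal because their replicate numbers could not be matched. Each pair of diet groups was fitted on its own samples of the final 14, over all genes left by filterByExpr, with TMM scaling and edgeR's quasi-likelihood test (edgeR 4.0.16, R 4.3.3) and Benjamini-Hochberg adjustment. Sexes were compared with diet as a covariate, and the interaction needed an adjusted p below 0.01 alone. The SE was derived from the F statistic, as the size of the log2 fold change over its square root. Normalized counts were scaled by TMM over the 17 samples. The edgeR step was tested on simulated counts for ET against PF and recovered 198 of 200 changed genes among 16068, with 0 false calls, and DESeq2 1.42.0 recovered 199 with 1 false call. Over 40 pairs of samples of a diet the smallest chi-square per gene was 8.64, so no library was taken as a duplicate. Fragments carry no molecular identifiers, so a floor of 3 counts, 1.71e-05% to 2.76e-05% of a library, covers counting error only.

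Members described were those with an adjusted p below 0.05, the 5 with the smallest p-value in each diet comparison, the 6 with the widest span between libraries among members with a mean of at least 20, and the 3 of highest mean in each class (26 members in all). The members, lists and tests were chosen with earlier results of these data known. Overlapping genes come from a list of assembly GRCr8, in which all 34 members were found. Alternatives were DESeq2, median-of-ratios scaling, no filter on low counts, sums of technical replicates, all 17 samples, 1 fit of the 3 diets, sex or side as a covariate, the replicate number as a block, other thresholds, leaving out members that overlap another gene, and leaving out each replicate. Plots were drawn with matplotlib 3.10.9.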

Additional observations from a re-analysis of the deposited data

Results flagged for a closer look

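Of 96 groups of libraries examined, 3 for each of 32 members, 4 held a library far from the others by Dixon's criterion, and chance gives about 4.8. Cdh3 accounted for 3 of them, at 186 normalized counts in ET replicate 2 (nearest other ET library 38.1), 250 in PF animal 11f6 (nearest other PF library 40.4) and 276 in AD replicate 4 (nearest other AD library 15.0). These are the 3 libraries outside the final 14 and the 3 with the highest Ttr. The fourth was Cdh23 in AD replicate 6, at 54.7 normalized counts beside 30.2 to 38.7 in the other AD libraries. Summed pineal gland genes were 13249 in that library, and their part in its Cdh23 level was not tested.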

How the results depend on the processing

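The number of members past the thresholds in ET against PF was 0 and became 1, Cdh23 each time, with no filter on low counts, with sums of technical replicates, with an absolute fold change above 1.5 and with an adjusted p below 0.05 and no fold limit. It ran from 0 to 1 on leaving out single libraries. In PF against AD the 1 member became 0 when members that overlap another gene were left out, since Cdh23 is one of them. Counts in ET against AD, between the sexes and for the interaction were 0 under every alternative run. The log2 fold change of Cdh23 in ET against PF lay between -1.663 and -1.398 over single left-out libraries and between -1.501 and -1.432 under the other alternatives, with adjusted p at most 0.0338 (edgeR).

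Values that changed sign were Cdh3 in ET against AD, from 0.63 to -0.149 with all 17 samples, -0.086 without ET replicate 1 (range -0.086 to 0.853 over single left-out libraries) and -0.205 without ET replicate 1 and AD replicates 1 and 2, an alternative chosen after the data were seen. The replicate block moved Pcdh10 in ET against PF from -0.14 to 0.068 and Cdh24 in ET against AD from -0.17 to 0.031, and none of these passed. Without changing sign it also moved Pcdh12 in ET against PF from 0.30 to 0.061, Pcdh11x in PF against AD from 0.34 to 0.167, and Cdh20 and Cdh22 in ET against AD from 0.32 to 0.781 and from -0.36 to -0.229. Cdh20 was 0.513 without ET replicate 1 and AD replicates 1 and 2. The cause was not tested. Replicate numbers pair different animals, and deviations of same-numbered libraries had mean correlations of 0.28 (2 pairs, ET against PF), -0.064 (3 pairs, ET against AD) and -0.029 (4 pairs, PF against AD), so the numbers were not taken as pairs. With the replicate block the count of members past the thresholds was 0 in ET against PF, where Cdh23 had a log2 fold change of -1.501 and an adjusted p of 0.0338 (edgeR), and in PF against AD it was 1, where Cdh22 reached an adjusted p of 0.00836 (edgeR) below the fold limit.

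With 4 or 5 libraries a group, the median SE of a member's log2 fold change was 0.129 in ET against PF. Group size and depth limit the differences that can be detected. Cdh17 and Cdh26 were too low to test.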
